A study of Arabidopsis thaliana with 8 samples.

Results

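Class III peroxidases are secreted plant enzymes, and the 10 loci described here are members of that family expressed in the Arabidopsis root. They were listed by locus identifier and found on the array through the platform's probeset annotation, keeping probesets annotated to 1 gene and, for a locus with several, the one with the highest mean signal. Of the 10 loci, 8 had such a probeset, out of 13286 loci with one in the whole series. AT5G67400, known as RHS19 or PRX73, and AT1G05240 (PRX1) were not analysed here. The measured loci are AT4G26010 (PRX44), AT3G49960 (PRX35), AT1G30870 (PRX7), AT3G01190 (PRX27), AT5G64100 (PRX69), AT5G17820 (PRX57), AT5G19890 (PRX59) and AT5G05340 (PRX52), each read by a single probeset. The PRX numbers are those in common use for the family. The names PRX44, PRX7 and PRX69 came with the list of loci, PRX52 is the symbol in the TAIR10.1 annotation, and that annotation carries no symbol for the others. Each signal has its own scale, set by its probes, so levels were compared between arrays and not between genes. Signals of different probesets were set side by side only against background and to choose genes for the search for similar patterns. They were added up only for marker lists, where the probesets with the highest signal weigh most.

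RNA was measured on 8 Affymetrix ATH1 arrays, in 4 groups of 2 biological replicates. The groups were the mutant per1 after transfer to phosphate-free (Pi-free) medium, per1 kept in control medium, the wild type Col-0 after transfer to Pi-free medium and Col-0 kept in control medium. All plants were of the Col-0 ecotype, grew on agar for 10 days with control medium and then spent 10 h on the second medium, and all RNA came from roots. The labels do not describe the per1 lesion or the number of plants behind an array. A free-text field of every sample speaks of iron and not of phosphate, in a pattern that does not follow the groups, so groups were taken from the sample titles. Since whole roots were used, fewer cells of a type and less RNA per cell cannot be told apart.

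Class III peroxidases use hydrogen peroxide to oxidise phenolic compounds in the cell wall. They cross-link extensins and lignin precursors and so stiffen walls, and in another part of their cycle they release radicals that loosen them. In roots the balance of hydrogen peroxide and superoxide that they help to set marks the boundary between dividing and elongating cells, and PRX44, PRX73 and PRX1 act together in the growth of root hairs. The per1 mutant is known for root hairs that fail to elongate when Pi is lacking.

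Across arrays the median signal was 186 to 197.1, and the highest of 27 bacterial control probesets read 26.1 to 43.4 per array. The lowest signal of a measured peroxidase from the list was 75, for PRX52. For actin, the 3' probeset over the 5' probeset, which reflects RNA integrity, gave ratios of 4.07 to 5.49 on Pi-free arrays and 4.98 to 6.38 on control arrays. The same ratio for GAPDH was 1.22 to 1.61 on Pi-free arrays and 1.31 to 1.58 on control arrays. The 25S rRNA probeset read 88.4 to 241.8 on per1 and 47 to 143.4 on Col-0 arrays. Of 17 green shoot tissue markers 5 were measured, and their summed signal was 410.3 to 490.8 on per1 and 708 to 848.5 on Col-0 arrays. Of 8 root hair cell markers 2 were measured, the expansins EXPA7 and EXPA18, which sum to 1328 to 1421 in Pi-free per1, 1675 to 1801 in control per1, 1917 to 2159 in Pi-free Col-0 and 1842 to 1981 in control Col-0. None of the 12 general root tissue markers had a probeset that could be used, so the root label was not checked beyond these. No measured marker was at 0.

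PRX44 is a root hair peroxidase, and its signal was 2908 and 2949 on the Pi-free per1 arrays, 4193 and 5072 on the control per1 arrays, 4414 and 4003 on the Pi-free Col-0 arrays and 5078 and 4077 on the control Col-0 arrays. The Pi-free per1 arrays were the lowest of all and did not overlap with any other group, while the other 3 groups overlapped. PRX35 read 1677 and 1336 in Pi-free per1, 1579 and 1268 in control per1, 2331 and 2341 in Pi-free Col-0 and 1557 and 1682 in control Col-0. Here the Pi-free Col-0 arrays stood above every other array, and the remaining groups overlapped with their neighbours in the order of means. PRX7 read 2084 and 2629 in Pi-free per1, 2561 and 3329 in control per1, 2621 and 2865 in Pi-free Col-0 and 2618 and 2565 in control Col-0. Its 4 group means, from 2357 in Pi-free per1 to 2945 in control per1, lay within the spread of single arrays, apart from the narrow gap between the Col-0 groups.

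PRX69 read 2910 and 3356 in Pi-free per1, 4247 and 5308.5 in control per1, 2827 and 2353 in Pi-free Col-0 and 4396 and 5173 in control Col-0. All 4 Pi-free arrays lay under all 4 control arrays, and the control groups of the genotypes overlapped. PRX27 had the same order of media, with 3870 and 3902 in Pi-free per1, 5377 and 4763 in control per1, 3961 and 3759 in Pi-free Col-0 and 5296 and 5538 in control Col-0. Its arrays within a group were the closest of the measured genes, with a within-group SD of 0.071 on the log2 scale, where PRX59 had the widest at 0.28. PRX57, whose gene is repressed in the root tip by the transcription factor UPBEAT1, read 3125 and 3332 in Pi-free per1, 3203 and 3595 in control per1, 3141 and 2552 in Pi-free Col-0 and 3398 and 3878 in control Col-0. Its Pi-free Col-0 arrays lay under the control Col-0 arrays, and each group overlapped with the next in the order of means.

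PRX59 read 995.2 and 1073 in Pi-free per1, 905.1 and 656.1 in control per1, 572 and 453.2 in Pi-free Col-0 and 525.6 and 353.8 in control Col-0. All 4 per1 arrays stood above all 4 Col-0 arrays, and in per1 the Pi-free arrays stood above the control arrays. PRX52, which takes part in lignin formation in the stem, read 123.2 and 109.7 in Pi-free per1, 104.2 and 96 in control per1, 166.9 and 215.6 in Pi-free Col-0 and 75 and 78.4 in control Col-0. Its 4 groups did not overlap at all, with Pi-free Col-0 highest and control Col-0 lowest. The signals on each array are drawn in the panels of the 8 genes.

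**Figure D1:**
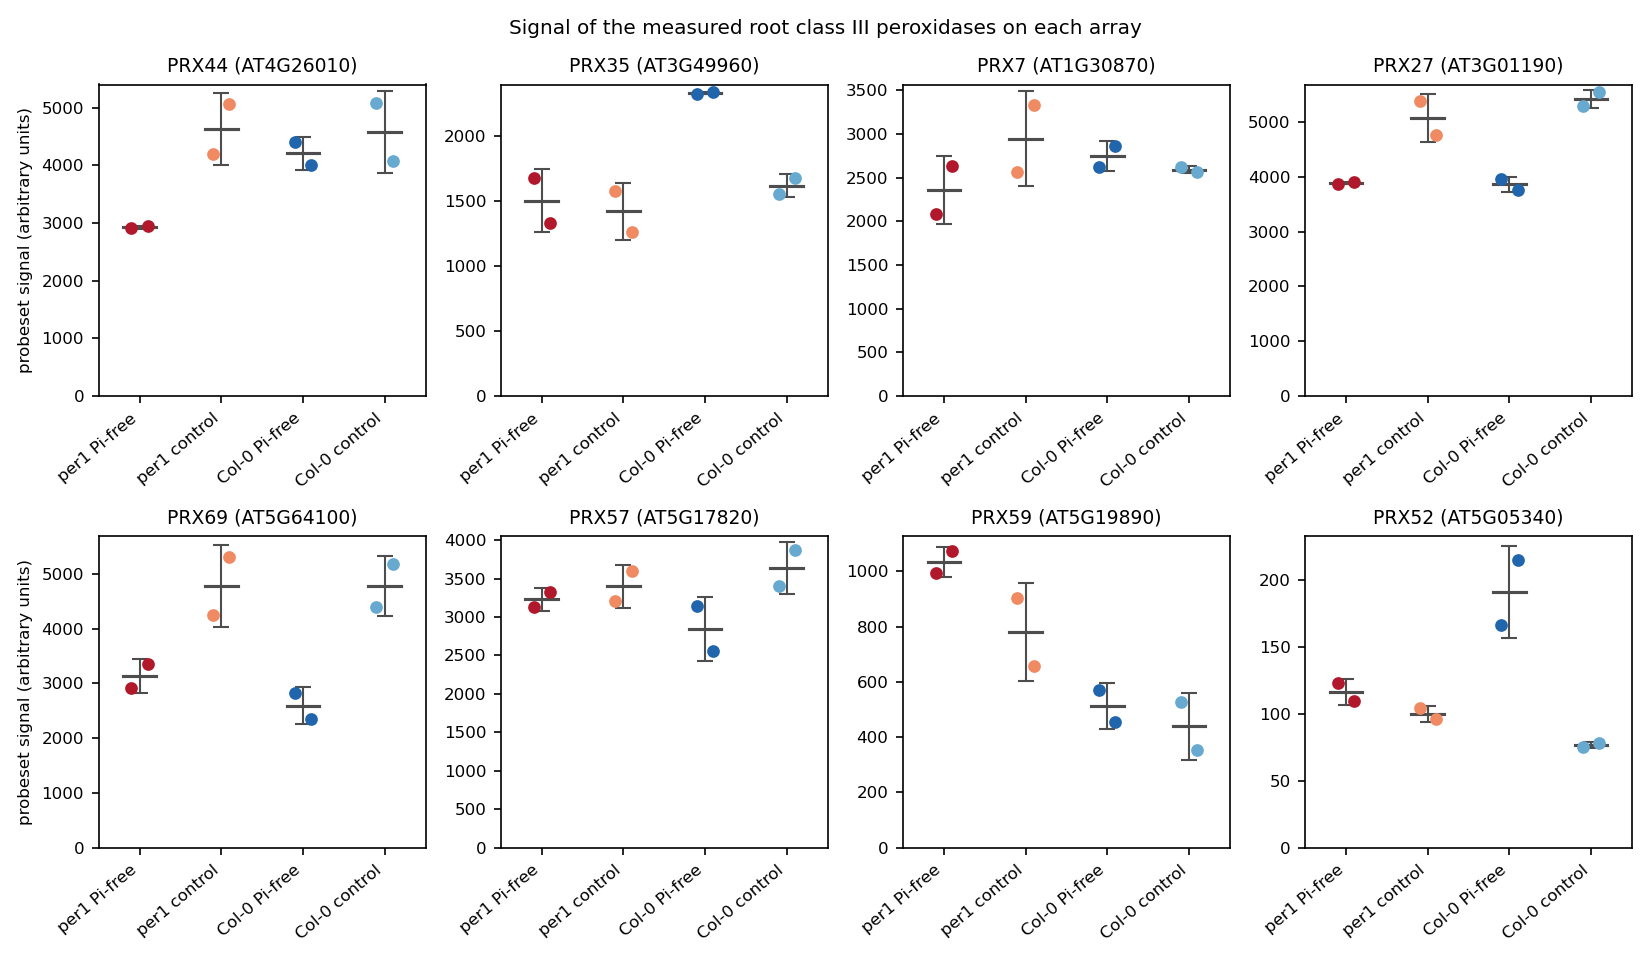
Probeset signal (vertical axis, arbitrary linear units from 0) of the 8 measured root class III peroxidases in per1 Pi-free, per1 control, Col-0 Pi-free and Col-0 control roots. Points are single arrays, left replicate 1 and right replicate 2; the horizontal bar is the group mean and the whiskers the SD (n = 2). PRX69 and PRX27 are lower on the Pi-free than on the control arrays of both genotypes, and PRX59 is higher on all per1 than on all Col-0 arrays.

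Each change below is a difference of means on the log2(signal + 16) scale, with its SE from limma, and a gene was called where its p-value, adjusted by Benjamini-Hochberg over all 22746 probesets, was under 0.05. Members and lists were chosen with earlier results of these data known, so each count beside the share of all probesets is a description and not a test. That share also covers many probesets with weaker signal than most of these genes. In per1, Pi withdrawal gave 0 calls among the 8 peroxidases by limma, with 0.0044% of all probesets called. At an unadjusted p under 0.05 there were 3, all lower, against 4.47% of all probesets, and the Pi-free and control arrays of 5 did not overlap, against 33.7% of all probesets. PRX44 had the largest difference, -0.65 ± 0.13, followed by PRX69 at -0.60 ± 0.15 and PRX27 at -0.38 ± 0.10, with adjusted p of 0.62, 0.86 and 0.94. PRX7 stood at -0.32 ± 0.15, PRX57 at -0.07 ± 0.13, PRX35 at 0.08 ± 0.14, PRX52 at 0.19 ± 0.23 and PRX59 at 0.42 ± 0.21. The median over the 8 was -0.19, beside 0.02 over all probesets.

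In Col-0 the same withdrawal gave 0 calls of 8 by limma, with 0.0615% of all probesets called. At an unadjusted p under 0.05 there were 2 higher and 3 lower, against 7.68% of all probesets, and 6 of 8 did not overlap between the media, against 35.2%. PRX52 had the largest difference, 1.15 ± 0.23 with an adjusted p of 0.22, and PRX35 stood at 0.52 ± 0.14 with an adjusted p of 0.40. Below 0 were PRX69 at -0.88 ± 0.15 with an adjusted p of 0.10, PRX27 at -0.49 ± 0.10 with one of 0.23 and PRX57 at -0.36 ± 0.13 with one of 0.57. PRX44 stood at -0.11 ± 0.13, with a 95% interval of -0.42 to 0.19, PRX7 at 0.08 ± 0.15 and PRX59 at 0.23 ± 0.21. The median over the 8 was -0.02, with 4 above and 4 below 0, and that over all probesets was -0.0007. PRX69 was called, with an adjusted p of 0.021, when only probesets with a mean signal above 50 were tested.

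The mean of the 2 Pi responses was tested next, and a value in it can come mostly from the estimate in 1 genotype, as for PRX44, PRX35, PRX52 and PRX57 above. None of their interactions, given below, was called. PRX69 fell by 0.74 ± 0.10, with a limma adjusted p of 0.033, and was the single call among the 8, against 0.127% of all probesets. The signal was lower in 4 of 4 Pi-free arrays, at 3133 ± 315 in Pi-free per1 against 4778 ± 750.5 in control per1, and at 2590 ± 335 in Pi-free Col-0 against 4785 ± 549.7 in control Col-0 (SD, n = 2 each). PRX27 stood at -0.43 ± 0.07 with an adjusted p of 0.080, and was called at 0.025 when probesets with a mean signal of 50 or less were left out. PRX44 stood at -0.38 ± 0.10 and PRX57 at -0.21 ± 0.09, with adjusted p of 0.34 and 0.78. PRX52 at 0.67 ± 0.16, PRX59 at 0.32 ± 0.15 and PRX35 at 0.30 ± 0.10 were above 0, with adjusted p of 0.33, 0.79 and 0.63. In all, 6 of 8 had an unadjusted p under 0.05 (2 higher, 4 lower), against 6.3% of all probesets. PRX69 and PRX27 lower and PRX52 higher did not overlap between media in either genotype, 3 of 8 against 6.61% of all probesets. The call of PRX69 did not hold when any 1 of the 8 arrays was left out, with changes of -0.82 to -0.66 and adjusted p of 0.051 to 0.31, nor with a pseudocount of 64, at 0.0504, nor without the intensity trend in the variance, at an adjusted p of 0.27. The actin 3'/5' ratio was also lower in Pi-free medium in the means of both genotypes, with Col-0 arrays that overlap. The GAPDH 3'/5' ratio was 1.44 and 1.22 in Pi-free per1 against 1.31 and 1.58 in control per1. In Col-0 it went the other way in the means, at 1.51 and 1.61 in Pi-free against 1.32 and 1.57 in control medium. The part of RNA integrity in these values was not tested.

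The interaction is the Pi response of per1 minus that of Col-0. By limma 0 of the 8 were called, with 0.00879% of all probesets called, and 3 had an unadjusted p under 0.05, all below 0, against 5.3% of all probesets. PRX52 had the largest interaction, -0.96 ± 0.33 with a 95% interval of -1.69 to -0.23. PRX44 had one of -0.54 ± 0.19 (95% interval -0.96 to -0.11) and PRX35 one of -0.44 ± 0.20 (-0.88 to -0.01). For PRX69 the interaction was 0.28 ± 0.21 with an interval of -0.19 to 0.75, for PRX27 0.11 ± 0.14 with one of -0.21 to 0.43, and for PRX59 0.18 ± 0.30 with one of -0.48 to 0.85. PRX7 stood at -0.40 ± 0.21 and PRX57 at 0.28 ± 0.18. The adjusted p was 0.92 to 0.97 for all 8, so none of these differences in response passed the test.

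**Figure D2:**
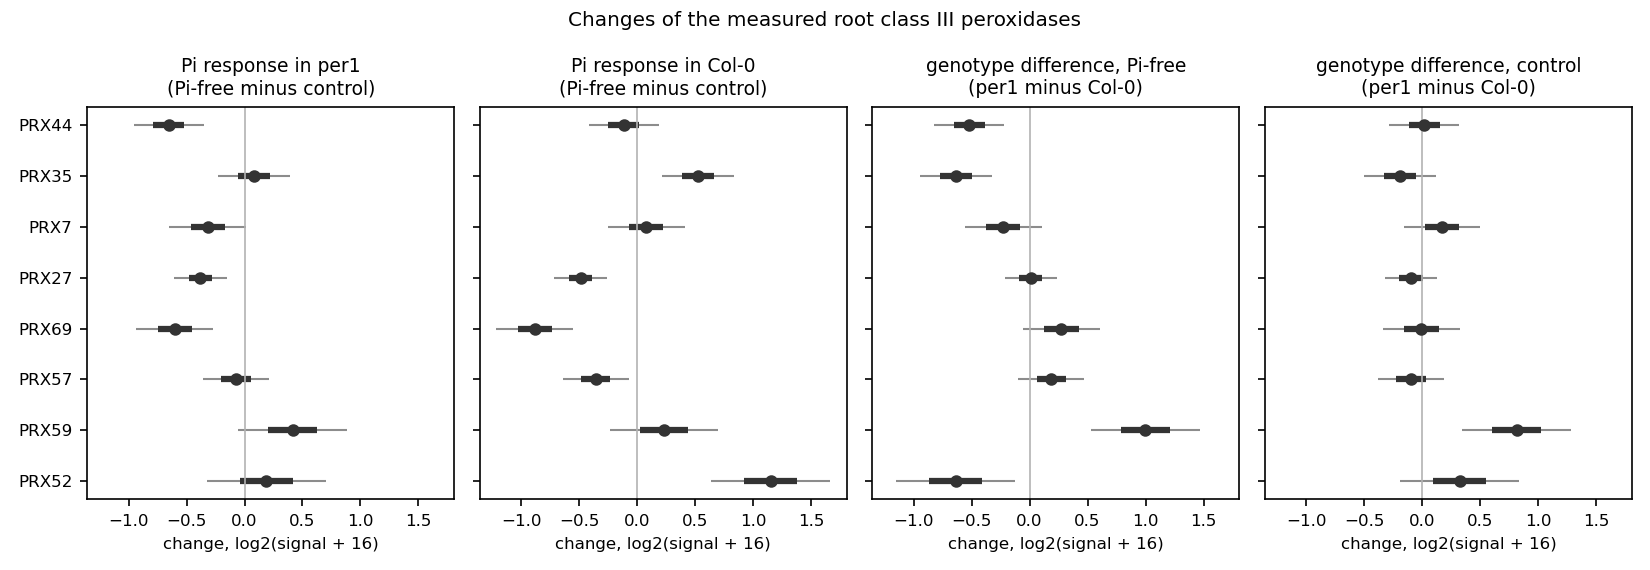
Differences on the log2(signal + 16) scale (horizontal axis) for the 8 measured root class III peroxidases: Pi response in per1, Pi response in Col-0, per1 minus Col-0 in Pi-free medium and per1 minus Col-0 in control medium. Thick bars are the SE and thin bars the 95% interval from limma, unadjusted. PRX69 and PRX27 lie below 0 in both Pi responses, PRX44 in per1 and PRX52 in Col-0 are farthest from 0, and PRX59 lies above 0 in both genotype differences.

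In Pi-free medium per1 was compared with Col-0. By limma 0 of 8 were called, with 0.0308% of all probesets called, 1 higher and 3 lower had an unadjusted p under 0.05, against 10.7% of all probesets, and 5 did not overlap, against 40.3%. PRX59 stood at 0.9985 ± 0.21, PRX35 at -0.64 ± 0.14, PRX52 at -0.64 ± 0.23 and PRX44 at -0.52 ± 0.13, with adjusted p of 0.16, 0.18, 0.37 and 0.24. PRX69 stood at 0.28 ± 0.15, PRX7 at -0.23 ± 0.15, PRX57 at 0.19 ± 0.13 and PRX27 at 0.01 ± 0.10. The median of the 8 was -0.11, beside 0.003 over all probesets. The summed signal of EXPA7 and EXPA18 was lower in Pi-free per1 than in Pi-free Col-0, like that of PRX44, PRX35 and PRX52, and the part of root hair cell number in these values was not tested.

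With Pi supplied, per1 and Col-0 were close for most of these genes. By limma 0 of 8 were called, with 0.0572% of all probesets called, and PRX59 at 0.81 ± 0.21 was the single gene with an unadjusted p under 0.05, against 10.3% of all probesets. Only PRX59 and PRX52, both higher in per1, did not overlap between the genotypes, 2 of 8 against 41.4% of all probesets. PRX52 stood at 0.32 ± 0.23, and the other 6 lay between -0.19 for PRX35 and 0.17 for PRX7. The 95% interval of PRX44 was -0.28 to 0.32 and that of PRX69 -0.34 to 0.32. The median of the 8 was 0.01, beside -0.02 over all probesets.

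Averaged over the media, PRX59 was higher in per1 by 0.91 ± 0.15, with a limma adjusted p of 0.030, and was the single call of 8, against 0.818% of all probesets. Its signal was higher in 4 of 4 per1 arrays, at 1034 ± 55.1 in Pi-free per1 against 512.6 ± 84 in Pi-free Col-0, and at 780.6 ± 176 in control per1 against 439.7 ± 121 in control Col-0 (SD, n = 2 each). PRX59 was also the single gene of the 8 whose genotypes did not overlap in both media in the same direction, against 13.3% of all probesets. The genotypes of PRX52 did not overlap in either medium, but in opposite directions. PRX35 at -0.41 ± 0.10 and PRX44 at -0.25 ± 0.10 also had an unadjusted p under 0.05, 3 of 8 in all against 14.1% of all probesets, with adjusted p of 0.096 and 0.27. PRX35 was called at 0.048 when only probesets with a mean signal above 50 were tested. The call of PRX59 held without replicate 2 of control per1 or either of Pi-free Col-0 replicate 1 and control Col-0 replicate 1, at adjusted p of 0.038 to 0.047. It was lost without either Pi-free per1 array, control per1 replicate 1, Pi-free Col-0 replicate 2 or control Col-0 replicate 2, at 0.094 to 0.15, and without the intensity trend, at 0.15. The 25S rRNA signal was higher in per1 in the means of both media, with arrays that overlap. All 5 green shoot markers lay below 0 in both media. LHCB4.2 among them read 9.6 and 26.3 in Pi-free per1, under the highest bacterial control of the same array (43.4 and 31.6), so the size of its difference was not read. RCA, the rubisco activase gene, was called at -0.73 ± 0.13 in the averaged difference with a limma adjusted p of 0.043. That call was lost whichever array was left out, at 0.074 to 0.20, and without the intensity trend, at 0.12. Their part in the difference of PRX59 was not tested.

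The remaining class III peroxidases were described in the same way. Of the other 63 loci of the family, 47 had a usable probeset, and 0 were called in either single-genotype Pi response, in either single-medium genotype difference, in the interaction or in the averaged Pi response by limma. At an unadjusted p under 0.05 there were 5 of 47 in per1 (4.47% of all probesets), 7 in Col-0 (7.68%), 8 in Pi-free medium (10.7%) and 6 in control medium (10.3%). There were 4 in the interaction (5.3%), 9 in the averaged Pi response (6.3%) and 9 in the averaged genotype difference (14.1%), the last with 6 higher and 3 lower. Their median change was 0.04 in per1, 0.03 in Col-0, 0.06 in the averaged Pi response and 0.01 in the averaged genotype difference. In the averaged Pi response the smallest p belonged to AT5G64120 at -0.97 ± 0.17 (adjusted p 0.12, and called at 0.022 when only probesets with a mean signal above 50 were tested), followed by AT4G30170 at -0.27 ± 0.08 and AT5G15180 at -0.35 ± 0.11 (adjusted p 0.61 and 0.64). AT4G30170 read 5157 and 5101 in Pi-free Col-0 against 6932 and 8342 in control Col-0, while in per1 it read 6081 and 6155 in Pi-free against 6367 and 5624 in control medium. Its interaction was 0.60 ± 0.17 with an adjusted p of 0.91.

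In the averaged genotype difference AT2G39040 was the single call of the 47, lower in per1 by -0.64 ± 0.12 with a limma adjusted p of 0.045, against 0.818% of all probesets. It read 184.3 and 215.3 in Pi-free per1, 228.2 and 200.4 in control per1, 305.6 and 304.9 in Pi-free Col-0 and 378.5 and 334.5 in control Col-0, so that all per1 arrays lay under all Col-0 arrays. Its call was lost whichever of the 8 arrays was left out, at adjusted p of 0.068 to 0.20. Without the intensity trend AT2G39040 was not called either, at a limma adjusted p of 0.12. AT5G15180 at -0.50 ± 0.11 and PRX37 (AT4G08770) at 0.34 ± 0.10 followed it in the main fit, with adjusted p of 0.089 and 0.16. AT5G15180 was called at 0.036 when only probesets with a mean signal above 50 were tested. Over the whole family, 55 of 73 loci were measured. In the averaged genotype difference 27 lay above and 28 below 0, and in the averaged Pi response 31 lay above and 24 below.

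**Figure D3:**
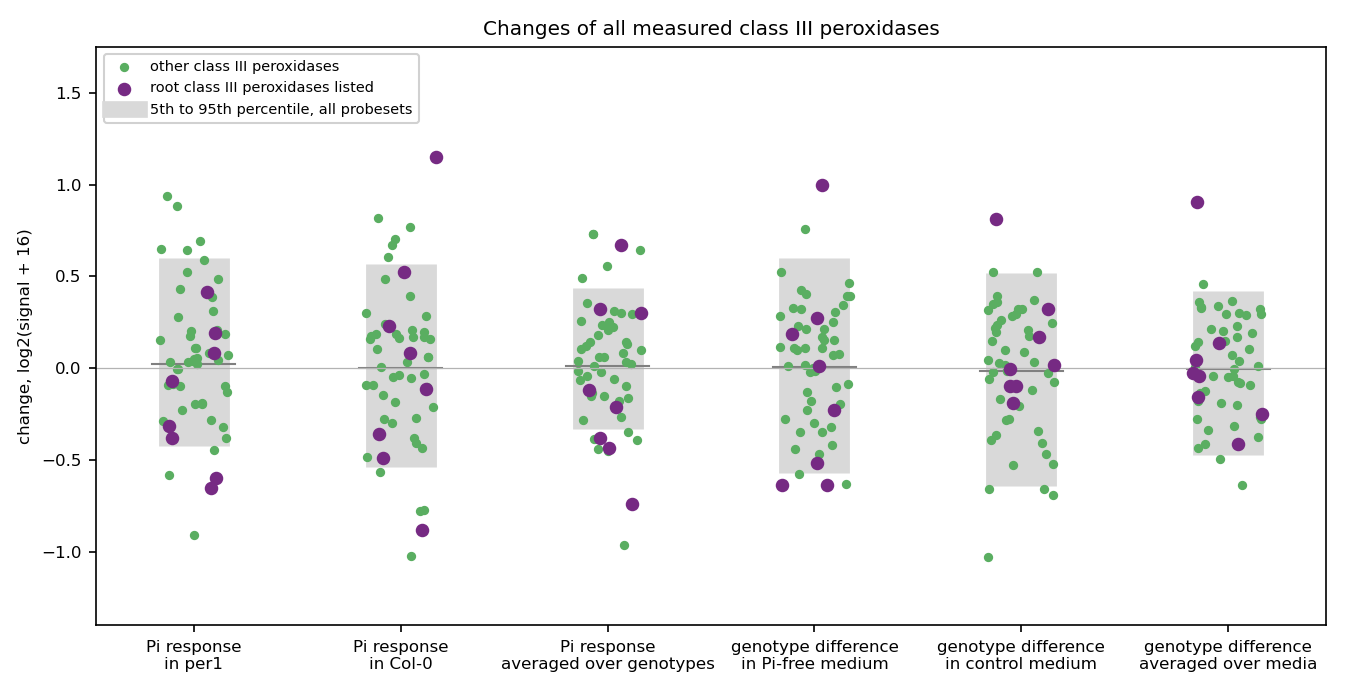
Differences on the log2(signal + 16) scale (vertical axis) for 8 root class III peroxidases of the list (large purple points) and 47 other class III peroxidases (small green points) in 6 comparisons; grey blocks span the 5th to the 95th percentile of all 22746 probesets and the short line is their median. Points are spread sideways only for legibility. PRX52 is the highest point in the Col-0 Pi response, PRX59 the highest in the 3 genotype differences, and PRX71 (AT5G64120) the lowest in the Col-0, per1 and averaged Pi responses.

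Some of these genes have family members next to them on the chromosome. PRX69 is followed on chromosome 5 by AT5G64110 and then AT5G64120 (PRX71), a peroxidase that limits growth after damage to the cell wall. AT5G64110 was chosen here for its position. PRX71 read 369.6 and 492.1 in Pi-free per1, 674.1 and 983.4 in control per1, 426.9 and 633.6 in Pi-free Col-0 and 911.9 and 1268 in control Col-0. Its Pi-free arrays lay under the control arrays of the same genotype in both genotypes, with differences of -0.91 ± 0.25 in per1 and -1.02 ± 0.25 in Col-0 and adjusted p of 0.94 and 0.34. AT5G64110, between them, read 3.2 to 66.1 over the 8 arrays, close to the range of the bacterial controls, and no Pi response was read from it. Whether the probesets of these neighbours detect each other's transcripts was not tested.

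**Figure D4:**
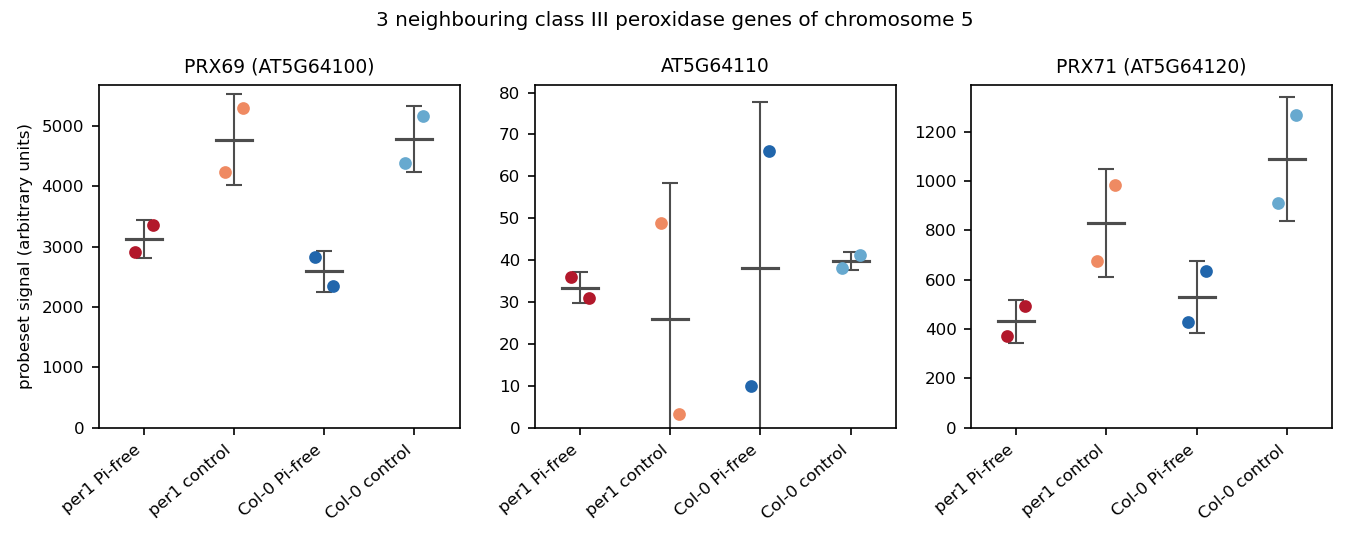
Probeset signal (vertical axes, arbitrary linear units from 0, each panel on its own scale) of the neighbouring genes PRX69, AT5G64110 and PRX71 in the 4 groups. Points are single arrays, bars the group mean and whiskers the SD (n = 2), cut at 0 where they pass below it. PRX69 and PRX71 are lower on the Pi-free arrays of both genotypes, and AT5G64110 stays at 3.2 to 66.1.

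PRX59 and PRX44 also have a measured neighbour of the family, again chosen for position. AT5G19880, next to PRX59, read 1.7 to 38.2 on the arrays. It passed the highest bacterial control of its own array only in Pi-free Col-0 replicate 1, at 38.2 against 27.9, and in Pi-free per1 replicate 2, at 31.8 against 31.6. With signals this near background, no difference between groups was read from it. AT4G25980, 3 genes from PRX44, read 35.1 and 47.4 in Pi-free per1, 48.6 and 34.3 in control per1, 17.8 and 17.6 in Pi-free Col-0 and 51.9 and 33.3 in control Col-0. These signals lie near those of the bacterial controls, and no change was read from them.

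Of 26 loci in a list of enzymes that make or remove reactive oxygen, with the regulator UPB1, 4 were measured, 3 of them respiratory burst oxidase homologues. In the averaged genotype difference 2 lay above and 2 below 0, with a median of -0.03. AT1G19230, an oxidase homologue of the kind that makes superoxide, was higher in per1 by 0.68 ± 0.11 in the averaged genotype difference, with a limma adjusted p of 0.030, and was the single call of the 4, against 0.818% of all probesets. It read 474.9 and 414.3 in Pi-free per1 against 291.4 and 299.3 in Pi-free Col-0, and 477.1 and 470.1 in control per1 against 233.5 and 298 in control Col-0. The call was lost whichever array was left out, at adjusted p of 0.050 to 0.16. Without the intensity trend AT1G19230 was not called either, at a limma adjusted p of 0.12. AT4G25090, another oxidase homologue, stood at -0.37 ± 0.17 in the averaged genotype difference with an adjusted p of 0.37, and is named after its values were seen. UPB1, the UPBEAT1 gene, stood at -0.15 ± 0.09 there and at 0.17 ± 0.09 in the averaged Pi response, with adjusted p of 0.51 and 0.83.

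Root hair wall genes, among them extensins of the kind that class III peroxidases can cross-link, were measured at 11 of 25 loci. Their median averaged genotype difference was -0.47, with 3 of 11 called lower and 0 higher, against 0.818% of all probesets called. Their averaged Pi response had a median of -0.02 with 0 calls by limma and 2 of 11 at an unadjusted p under 0.05, against 6.3% of all probesets. In the averaged genotype difference 8 of the 11 lay below 0. By limma 6 lower and 1 higher had an unadjusted p under 0.05, against 14.1% of all probesets. The 3 called lower in per1 were the extensin gene AT4G08410 at -0.82 ± 0.10, the xyloglucan endotransglucosylase gene XTH26 at -1.50 ± 0.27 and the expansin gene EXPA18 at -0.47 ± 0.08, at adjusted p values of 0.0090, 0.039 and 0.030. The probeset of AT4G08410 has the suffix _x_at, as have those of HRGP1 and AT5G06630, which are also among the 6 lower. Whether these probesets detect each other's transcripts or those of related extensin genes was not tested, so they may not count as separate genes. When each of the 8 arrays was left out in turn, AT4G08410 was called 6 times, XTH26 0 times and EXPA18 1 time. Without the intensity trend the calls of AT4G08410, XTH26 and EXPA18 were lost, at limma adjusted p of 0.11, 0.14 and 0.16. EXPA18 is also 1 of the 2 root hair cell markers above. AT1G26250, named after its values were seen, lay on the other side, at 0.52 ± 0.17 in the averaged genotype difference and 1.10 ± 0.24 in Pi-free medium, with adjusted p of 0.21 and 0.18. Of the lignin and suberin genes 2 of 32 were measured, HCT and CCR2, with averaged Pi responses of 0.04 ± 0.08 and 0.34 ± 0.16 and adjusted p of 0.97 and 0.81. The receptor kinase gene FER was the single measured locus of 14 root hair regulators, at -0.03 ± 0.08 in the averaged Pi response with an adjusted p of 0.97. Of 25 phosphate starvation genes 3 were measured, and in the averaged Pi response AT5G20790 stood at 0.76 ± 0.17 and LPR1 at -0.002 ± 0.14, with adjusted p of 0.27 and 0.998. AT2G04460 read 69.3 and 43.7 in Pi-free per1 against 19.1 and 33.1 in control per1, and 70.6 and 41.6 in Pi-free Col-0 against 17.1 and 16.4 in control Col-0. Its control arrays lay under the highest bacterial control of the same array, so no size of change is given, and its adjusted p was 0.39.

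Genes with a similar pattern were sought for PRX27, PRX44 and PRX69, the 3 with the highest mean probeset signal. Candidates were probesets of other single genes, kept only if their signal was strong enough and varied enough over the arrays. That left 2669 candidates for PRX27, 1428 for PRX44 and 390 for PRX69, out of 13286 loci with such a probeset. Genes outside these candidates were not compared, so the closest genes named here are the closest among the candidates only. Likeness was the mean absolute difference over the 8 arrays between log2 values, each centred on its own mean. AT5G06270 followed PRX27 most closely, at 0.05, with mean signals of 637.2 in Pi-free per1, 859.7 in control per1, 639.5 in Pi-free Col-0 and 904 in control Col-0. PUB22, a ubiquitin ligase gene, was closest to PRX69, at 0.11, with 350.5, 481.2, 315.1 and 561.3 in the same order of groups. AT2G30930 was closest to PRX44, at 0.12, with 1562 in Pi-free per1, 2528 in control per1, 2399 in Pi-free Col-0 and 2926 in control Col-0. The next 2 genes were AT1G13940 and AT1G26170 for PRX27, AT1G51790 and AT3G56360 for PRX69, and AT1G13670 and AT1G33700 for PRX44, at 0.08 to 0.17.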

How the data were processed

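The authors deposited linear probeset signal intensity values, 1 column per array, for 8 arrays in 4 groups. The summarising software is not given in the sources used here, and the 2% trimmed mean was 500 on every array. Of 22810 probesets, 64 controls were left out. The annotation gave 1 gene for 13513 probesets, of which 13436 matched TAIR10.1 loci. Values were used as log2(signal + 16) without further normalization, and all 22746 others entered a limma fit (limma 3.58.1, R 4.3.3) that had a mean for each group, an intensity trend and 4 residual degrees of freedom. The test was checked on simulated data. The SE and 95% intervals use these moderated variances. The number of arrays limits precision. Members and lists were chosen with earlier results of these data known. Named genes were all measured members, and from each other list the calls or up to 3 loci with the smallest p; neighbours were added by position. No sequences were used here.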

Additional observations from a re-analysis of the deposited data

How the results depend on the processing

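Of 784 values of the 8 genes in 7 comparisons under 14 alternatives, 744 kept their direction and their side of the threshold, 16 lost a call, 4 gained one and 20 changed direction, none of them called; the cause was not tested unless given here. No alternative probeset could be tried, since 0 of the 8 loci had a second one. With only probesets above a mean signal of 50, fewer were tested and the calls were 1 in the Col-0 Pi response, 2 in the averaged Pi response and 2 in the averaged genotype difference. With a pseudocount of 64 the averaged Pi response had 0, and without the intensity trend both averaged comparisons had 0. The number called without 1 array was 0 in all 8 fits for the averaged Pi response and 0 to 1 for the averaged genotype difference, where fewer samples were fitted. Over all probesets, same-numbered arrays deviated together only weakly (correlations of their deviations from the group means of 0.002 to 0.077). Single probesets can still follow the replicate number, and the 25S rRNA and PRX71 signals were higher in replicate 2 of every group. With the replicate number as a block, 1 was called in Pi-free medium (PRX59, 0.9985, adjusted p 0.049), and no other count of the 8 changed. Under it PRX71 was also called, in the Col-0 (adjusted p 0.0098) and averaged Pi responses (0.0011), and AT5G66390 in the averaged genotype difference (0.042). Quantile normalization turned PRX69 in control medium to 0.0168. Leaving out 1 array gave Pi responses in Col-0 of -0.27 to 0.0437 for PRX44 and -0.0442 to 0.51 for PRX59, and in per1 of -0.0821 to 0.24 for PRX35 and -0.155 to 0.0106 for PRX57. The genotype difference in control medium was -0.14 to 0.18 for PRX44, -0.0167 to 0.36 for PRX7 and -0.17 to 0.15 for PRX69, and that in Pi-free medium -0.0273 to 0.0479 for PRX27. The PRX59 interaction was -0.0907 to 0.46. The averaged genotype difference was -0.12 to 0.0669 for PRX7, -0.0290 to 0.12 for PRX57 and -0.0871 to 8.8e-05 for PRX27.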
